A study of Mus musculus with 12 samples.

Results

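Mouse NIH3T3 fibroblasts, an established cell line, were compared after 48 h in 1 mM DFMO (difluoromethylornithine) with untreated cells of 0 h. The members are the 2 arrays titled as DFMO-treated for 48 h and the 3 arrays titled as untreated controls, 5 of the 12 arrays of the study. All 5 hold total RNA of the G1 fraction obtained by cell sorting, and the drug was added 24 h after seeding. The other 7 arrays are of cells kept in DFMO for 12 h (2 arrays), 24 h (3 arrays) and 96 h (2 arrays). Untreated cells were analysed here at 0 h alone, so the drug and the added 48 h in culture cannot be told apart. The labels call the arrays biological replicates without naming separate cultures, so p-values measure a spread between samples that may be technical. That spread is the one within groups, pooled over all 12 arrays of the study and not taken from these 5 alone. The number of arrays limits the precision. These are bulk samples, in which fewer cells of a kind and less RNA per cell cannot be told apart.

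DFMO irreversibly blocks ornithine decarboxylase, which forms putrescine, the precursor of spermidine and spermine. Polyamines are small positively charged molecules that bind RNA and other nucleic acids, and spermidine is the source of the hypusine residue of the translation factor eIF5A. Cells held without polyamines slow or stop their growth. The comparison asks which transcripts differ after 48 h in the drug, within cells sorted for G1 DNA content. The arrays do not measure polyamine levels.

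Levels are log2 values of a whole-transcript array, each gene represented by 1 transcript cluster. Of 19938 genes tested with limma, 1160 (5.82%) were called at an adjusted p under 0.05. Of these 528 were higher (2.65%) and 632 lower (3.17%) at 48 h. The median log2 change was 0.57 among the called higher genes and -0.61 among the called lower genes, against -0.02 over all genes. Changes of at least 2-fold were found in 29 risen and 97 fallen genes, so the large changes were mostly falls. The fallen genes were well-expressed ones, with a median untreated log2 level of 7.97, against 6.63 for the risen genes and 4.14 for all genes. For each called gene the 48 h arrays lay beyond all untreated arrays, a separation that 15.7% (above) and 25.2% (below) of all genes showed.

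**Figure D1:**
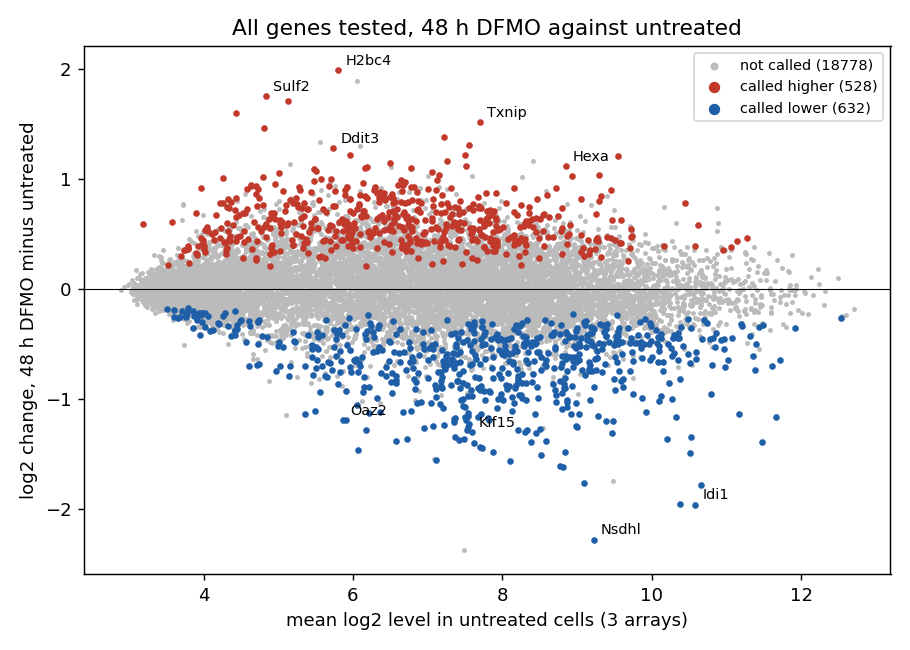
Each point is a gene, with its mean log2 level in the 3 untreated arrays on the x axis and its log2 change (48 h DFMO minus untreated) on the y axis. Grey points were not called, red points (528) were called higher and blue points (632) lower, and the blue points reach farther from 0, to -2.28 for Nsdhl.

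The replicate arrays correlated at 0.995 to 0.998 among untreated cells and at 0.997 at 48 h. Untreated replicate 3 stood farthest from its group, with a limma array weight of 0.58 against 2.14 for replicate 1. Without it 918 genes were called, without untreated replicate 1 or 2 the number was 755 or 642, and without 48 h replicate 1 or 2 it was 375 or 412. When 1 of the 48 h arrays is left out, the lone array is assumed to vary like the other groups. A total of 77 risen and 144 fallen genes kept their call with each of the 5 arrays left out in turn. The split between directions depended on scaling, with 644 higher and 552 lower once arrays were centred on their medians. The largest difference of any gene was not called: Ranbp3l, named after its values were seen, differed by -2.38 with 48 h arrays at 4.34 and 5.87 (limma adjusted p = 0.0558).

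The cells carried fibroblast markers at both times. The 12 fibroblast markers had a median untreated log2 level of 10.16, and 0 of them were called at 48 h, against 5.82% of all genes. Vim, an intermediate filament protein of mesenchymal cells, was at 12.29, 12.28 and 12.34 in untreated cells and 12.09 and 12.21 at 48 h. The proteoglycan genes Dcn and Lum lay near the floor of the array in untreated cells, between 3.59 and 4.03. Markers of leukocytes, epithelium, endothelium, adipocytes and skeletal muscle had median levels between 3.50 and 3.64. Of their 50 measured members 0 were called, against 5.82% of all genes. Krt14, an epithelial keratin, and Lpl, the lipoprotein lipase of the adipocyte list, were exceptions in level, with untreated means of 8.83 and 7.72.

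Of 21 measured polyamine genes 0 rose and 2 fell, Oaz2 and Smox, against 2.65% higher and 3.17% lower over all genes, and the median log2 change was -0.04. Odc1, which encodes the enzyme that DFMO blocks, was at 9.61, 9.73 and 9.79 in untreated cells and at 9.82 and 9.64 at 48 h. The groups overlap, and the difference was 0.03 ± 0.16 (SE, limma adjusted p = 0.955, n = 2 against 3).

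Oaz2, an antizyme that binds ornithine decarboxylase and marks it for degradation, was at 5.89, 5.68 and 6.02 in untreated cells and at 4.70 and 4.63 at 48 h. It fell by 1.20 ± 0.15 on the log2 scale (limma adjusted p = 0.00278), and its arrays do not overlap. Smox, the spermine oxidase, was at 6.33, 6.25 and 5.93 against 4.60 and 5.18, and fell by 1.28 ± 0.27 (limma adjusted p = 0.0244). The Smox call ended when untreated replicate 1 or 2, or either 48 h array, was left out. For both genes the 24 h value lay below untreated, at -0.73 for Oaz2 and -0.63 for Smox, but 0 genes were called at 24 h. The 48 h values did not pass the test against 24 h either (limma adjusted p = 0.214 and 0.374).

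The other polyamine enzymes gave small differences. Srm, the spermidine synthase, differed by 0.17 and Sat1, the acetyltransferase that starts polyamine breakdown, by -0.14. Azin1, which frees ornithine decarboxylase from antizyme, differed by 0.34 ± 0.10 (limma adjusted p = 0.0919), with both 48 h arrays, 10.31 and 10.56, above the untreated 10.00 to 10.16. Eif5a, the carrier of hypusine, differed by -0.05, and Dohh, which completes hypusine, by -0.70 with its 48 h arrays apart at 6.82 and 7.49 (adjusted p = 0.107). Among the carriers, the P-type ATPase gene Atp13a3 differed by 0.15, and Slc3a2, the heavy chain of several amino acid exchangers, by 0.27.

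Cholesterol synthesis held the largest falls of the named called genes. The pathway builds squalene from acetyl-CoA through mevalonate and isoprenoids, then turns it into sterols. Its genes are controlled together by SREBP2, a membrane-bound transcription factor that is released when sterols in the endoplasmic reticulum are low. Of 8 measured enzymes up to squalene 7 fell, with a median log2 change of -1.52, and of 11 enzymes after squalene 10 fell, with a median of -1.16. Among all genes 3.17% fell, and the median was -0.02. The 7 calls up to squalene stood in each alternative tried, while the 10 later ones numbered 7 and 8 without 48 h replicate 1 and 2.

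Hmgcs1, the synthase that makes HMG-CoA, was at 10.38, 10.21 and 10.53 in untreated cells and at 8.38 and 8.46 at 48 h. Every 48 h value lies more than 1.5 log2 units below every untreated one, and the fall was 1.96 ± 0.16 (3.88-fold, limma adjusted p = 0.000672). Idi1, the isomerase of the 5-carbon isoprenoid units, was at 10.72, 10.63 and 10.39 against 8.71 and 8.52. It fell by 1.97 ± 0.12 (3.91-fold, limma adjusted p = 0.000399). Mvk, Pmvk and Mvd, the enzymes that take mevalonate to isopentenyl diphosphate, fell by 1.57, 1.56 and 1.49, and Fdps, which makes farnesyl diphosphate, by 1.48 ± 0.11 (adjusted p = 0.000461). Fdft1, the squalene synthase and first step committed to sterols, fell by 1.49. The enzyme not called in this group was Ggps1, named after its values were seen, which makes geranylgeranyl diphosphate for protein prenylation outside the sterol branch. Its level was 7.89, 7.90 and 7.78 in untreated cells and 7.80 and 7.84 at 48 h, with the groups overlapping.

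After squalene, Nsdhl had the largest fall of the named called genes. It encodes a sterol dehydrogenase that acts in removing the methyl groups of lanosterol. Nsdhl was at 9.44, 9.30 and 8.94 in untreated cells and at 6.85 and 7.04 at 48 h, and fell by 2.28 ± 0.18 (4.86-fold, limma adjusted p = 0.000494). Lss, which folds the ring system, fell by 1.76 ± 0.24, and Hsd17b7, which acts beside Nsdhl, fell by 1.61 ± 0.18. Sqle, the squalene epoxidase, was at 10.27, 10.11 and 10.25 against 8.81 and 8.88, and fell by 1.37 ± 0.12 (adjusted p = 0.000672). Cyp51, the lanosterol demethylase, and Msmo1, a methyl sterol oxidase, fell by 1.35 and 1.16. Ebp, a sterol isomerase named after its values were seen, was not called at -0.24 ± 0.12 (adjusted p = 0.31), although its 48 h arrays, 8.13 and 8.18, lie below the untreated 8.32 to 8.52.

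**Figure D2:**
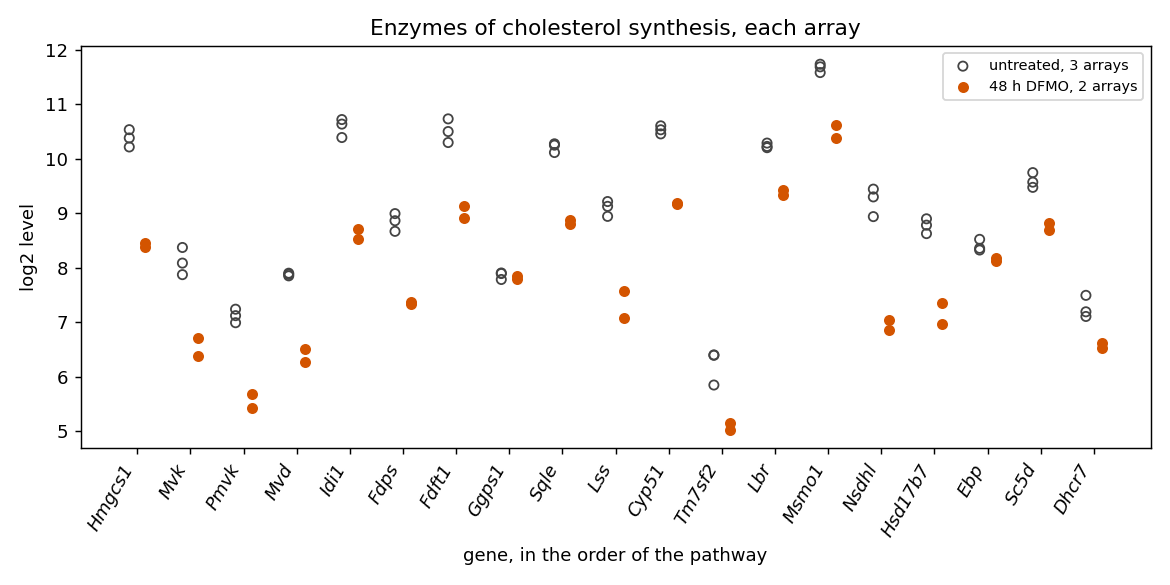
Log2 level (y axis) of each measured enzyme of cholesterol synthesis (x axis, in pathway order) in the 3 untreated arrays (open circles) and the 2 arrays of 48 h DFMO (filled circles). The filled circles lie below the open ones for each gene but Ggps1, by the largest distance for Nsdhl (-2.28).

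Around the pathway, 5 of 13 genes of sterol sensing and uptake fell and 0 rose (median -0.29), against 3.17% fallen among all genes. Insig1, which retains SREBP in the endoplasmic reticulum and is itself an SREBP target, was at 10.77, 10.61 and 10.60 against 8.84 and 8.90, and fell by 1.79 ± 0.15 (adjusted p = 0.000672). Stard4, a cholesterol carrier, fell by 1.52 and Tmem97, a regulator of the NPC1 transporter, by 0.97. Scarb1, a lipoprotein receptor, fell by 0.74. Srebf2, the gene of SREBP2, was at 9.72, 9.69 and 9.40 against 9.03 and 8.99 and fell by 0.59 ± 0.15 with an adjusted p of 0.0498. The 5 calls numbered 2 without 48 h replicate 1 and 3 without replicate 2, and that of Srebf2 ended in both, without untreated replicate 1 or 2, with centred arrays and among all clusters. Of 7 genes of the LXR group, which respond to high sterol, 1 fell and 0 rose. This was Mylip, a ubiquitin ligase, at -0.71 ± 0.15 (adjusted p = 0.027). It was no longer called with untreated replicate 1 or 2 or either 48 h array left out. Abca1, the cholesterol exporter, was at 3.97, 3.85 and 3.80 against 4.31 and 4.26, and was not called (0.42, adjusted p = 0.092).

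The fatty acid list, also in part under SREBP control, showed the same direction at a smaller size. Of its 24 measured genes 10 fell and 0 rose, against 3.17% lower and 2.65% higher over all genes. The list's median was -0.41. Scd2, a stearoyl-CoA desaturase, was at 11.49, 11.45 and 11.48 against 10.23 and 9.93 and fell by 1.40 ± 0.20 (adjusted p = 0.00457). Aacs, which activates acetoacetate for lipid synthesis, fell by 1.39, Elovl6, an elongase, by 1.20, and Acly, which makes cytosolic acetyl-CoA, by 1.16. Fads2, a desaturase, and Slc25a1, the citrate carrier of mitochondria, fell by 0.95 each.

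In sugar metabolism single enzymes fell. Among all genes 3.17% fell. Of 9 genes of the pentose phosphate route 2 fell, Tkt (transketolase) by 0.90 ± 0.09 and Pgd (phosphogluconate dehydrogenase) by 0.75 ± 0.09, while the list's median was 0.02. Of 20 glycolysis genes 3 fell, Pfkl, Ldha and Tpi1, with a median of -0.14. Pfkl, the liver-type phosphofructokinase, was at 8.92, 8.81 and 8.71 against 6.81 and 7.57. Its 48 h arrays differ from each other by more than its untreated arrays do, and the fall was 1.62 ± 0.26 (adjusted p = 0.00861). The 3 glycolysis calls numbered 0 without 48 h replicate 1.

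Promoter sequences show the letters that the fallen and risen groups hold near their start sites. They were taken from RefSeq (GRCm38.p6), from 250 bases before to 50 after each annotated start, and 15563 of the 19938 genes matched an entry. The motifs searched on both strands were the sterol regulatory element (TCACNCCAC), the CCAAT box (CCAAT), E2F sites (TTTCCCGC, TTTGGCGC or TTTCGCGC), the cell cycle genes homology region or CHR (TTTGAA), and a composite site of C/EBP and ATF factors (TGATGNAA). Matches can overlap, as the E2F matches of Mcm6 do. A match describes the letters and is neither a bound site nor a cause. Only promoters that hold the marked letters were eligible to be printed.

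The stretches before the start of Hmgcs1 (chr13:119690101-119690350, plus strand), Idi1 (chr13:8885506-8885605, plus strand) and Mvk (chr5:114444079-114444268, plus strand) are shown as examples that hold the marked letters. These enzymes fell in each alternative tried, as did the other called enzymes up to squalene. Capitals mark CCAAT matches (ATTGG on the other strand) and, in Hmgcs1, also the sterol regulatory element.
Hmgcs1: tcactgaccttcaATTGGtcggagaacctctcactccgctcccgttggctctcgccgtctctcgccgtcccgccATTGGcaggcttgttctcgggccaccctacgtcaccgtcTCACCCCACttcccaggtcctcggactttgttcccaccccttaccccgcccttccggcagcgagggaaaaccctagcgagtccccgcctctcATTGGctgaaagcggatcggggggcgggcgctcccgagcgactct
Idi1: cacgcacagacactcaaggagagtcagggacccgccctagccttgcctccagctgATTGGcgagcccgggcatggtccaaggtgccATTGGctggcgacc
Mvk: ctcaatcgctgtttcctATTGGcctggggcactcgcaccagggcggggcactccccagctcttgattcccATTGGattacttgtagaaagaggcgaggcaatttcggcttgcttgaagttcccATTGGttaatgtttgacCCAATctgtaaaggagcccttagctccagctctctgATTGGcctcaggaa
The Hmgcs1 element starts 137 bases before the start of the gene. Mvk holds 5 CCAAT matches in its window and Hmgcs1 4. The shares cover the 6 of 8 enzymes up to squalene and 10 of 11 later ones that matched an entry, without Fdps, Fdft1 and Sqle. A sterol regulatory element with these letters lay in 1 of 7 promoters of the enzymes up to squalene and in 0 of 12 of the later ones, against 1.24% of all 32851 promoters. CCAAT lay in 6 of 7 and 10 of 12, against 37.4% of all promoters. CCAAT was also common in genes that did not fall: 80% of 20 promoters of circadian clock genes held it, a list with 0 of 17 genes called.

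Genes of DNA replication fell broadly, at a smaller size than the sterol genes. Among all genes 3.17% fell and 2.65% rose. In the licensing and initiation list 15 of 26 genes fell and 0 rose (median -0.54), and among proteins of the replication fork and chromatin assembly 19 of 32 fell and 0 rose (median -0.66). Cdc6, which loads the MCM helicase onto origins, was at 7.33, 7.54 and 7.59 in untreated cells and at 6.30 and 5.94 at 48 h. It fell by 1.36 ± 0.14 (limma adjusted p = 0.0013), and its arrays do not overlap. Mcm5 and Mcm6, subunits of that helicase, fell by 0.82 ± 0.11 and 0.52 ± 0.08. Mcm10, which helps activate it, fell by 0.77, and Recql4, a helicase of initiation, by 0.78 ± 0.07 (adjusted p = 0.000745). Without 48 h replicate 1 or 2 the 15 calls numbered 8 or 4, and without untreated replicate 3 together with an array each of 12 h and 24 h they numbered 9.

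At the fork, Clspn, a mediator of the replication checkpoint, was at 7.24, 7.47 and 7.39 against 6.11 and 5.92, and fell by 1.35 ± 0.11 (adjusted p = 0.000514). Asf1b and Chaf1a, which bring histones to new DNA, fell by 1.31 and 1.19. Timeless, a fork protection factor, fell by 1.05, and Rpa1, which coats single-stranded DNA, by 0.66 ± 0.06. The 19 calls numbered 11 and 10 without 48 h replicate 1 and 2. Of 11 genes of nucleotide supply 3 fell, against 3.17% of all genes, and 0 rose. Tk1 (thymidine kinase) fell by 1.31, Rrm2 by 1.26 and Rrm1 by 0.53, the last 2 being subunits of ribonucleotide reductase. Of these 3 calls 1 was left when either 48 h array was left out. Tyms, the thymidylate synthase, was at 7.70, 7.79 and 7.78 against 7.50 and 7.25 and was not called (adjusted p = 0.0883).

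Among genes of recombination and interstrand repair 11 of 24 fell and 0 rose (median -0.47), against 3.17% lower over all genes. Exo1, a resection nuclease, was at 7.25, 7.50 and 7.51 against 6.20 and 5.88, and fell by 1.38 ± 0.13 (adjusted p = 0.00085) with its groups apart. Fancb, of the Fanconi core complex, fell by 1.44 ± 0.16 and Brca1, which acts in homologous recombination, by 1.29. The 11 calls numbered 6 without 48 h replicate 2.

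Mitosis genes fell as well, in cells sorted for G1. Among all genes 3.17% fell and 2.65% rose. At the kinetochore and its checkpoint 14 of 27 genes fell and 0 rose (median -0.60), and among mitotic kinases, cyclins and the anaphase-promoting complex 14 of 27 fell and 0 rose (median -0.64). In the list of kinesins and spindle proteins 14 of 27 fell and 1 rose (median -0.62), and of cohesin and condensin 10 of 19 fell and 0 rose (median -0.54). Kif15, a kinesin of spindle bipolarity, had the smallest p of all genes. Its levels were 7.60, 7.59 and 7.58 in untreated cells and 6.28 and 6.29 at 48 h, and it fell by 1.30 ± 0.05 (limma adjusted p = 1.91e-05).

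Bub1b, a checkpoint kinase, was at 8.35, 8.45 and 8.36 against 6.88 and 7.12 and fell by 1.39 ± 0.11 (adjusted p = 0.000672). Nek2, a centrosome kinase, was at 7.51, 7.87 and 7.79 against 6.11 and 6.45 and fell by 1.45 ± 0.15. Both genes keep their groups apart by more than 1 log2 unit. Ccna2, the cyclin of S phase and mitotic entry, fell by 1.21, Cdc25c, a phosphatase that activates CDK1, by 0.91, and Cenpe, a kinetochore motor, by 0.99. Ncapd2 and Ncapg2, condensin subunits, fell by 1.11 and 1.09, and Cdca5, which protects cohesion, by 1.27. The risen gene of the spindle list was Psrc1, named after its values were seen, a microtubule-binding protein at 6.49, 6.32 and 6.23 against 7.02 and 7.32 (0.83 ± 0.15, adjusted p = 0.0144). Without 48 h replicate 1 and 2 the calls numbered 6 and 8 for the kinases and 8 and 7 for the kinesins. The 14 kinase calls numbered 9 without untreated replicate 2 or 3, and the rise of Psrc1 was not called without 48 h replicate 2.

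The promoters of Mcm6 (chr1:128359706-128359825, minus strand) and Kif15 (chr9:122951021-122951080, plus strand) are shown for the replication and mitosis groups. Capitals mark E2F matches in Mcm6, and in Kif15 an E2F match followed directly by a CHR, both on the other strand.
Mcm6: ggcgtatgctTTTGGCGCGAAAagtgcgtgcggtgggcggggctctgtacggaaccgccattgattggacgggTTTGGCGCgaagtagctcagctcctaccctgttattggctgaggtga
Kif15: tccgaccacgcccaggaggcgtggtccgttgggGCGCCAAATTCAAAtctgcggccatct
E2F letters lay in 40% of 25 promoters of the licensing list and 33.3% of 36 of the fork list, against 1.84% of all promoters. CHR letters lay in 82.8% of 29 promoters of the kinesin list and 50% of 20 of the mitotic kinases, against 17.9% of all promoters. Over all genes that fell, 6.81% of 675 promoters held E2F letters, against 1.94% of 567 promoters of genes that rose. The same letters were also common in other lists: CHR lay in 42.3% of 26 promoters of the histone list, with 0 genes fallen, and E2F letters in 42.9% of 14 of the E2F and pocket protein list, with 3 of 13 fallen. E2F letters lay in 0 of 13 promoters of the nucleotide supply list. Over the promoters of all genes tested the shares were 2.58% for E2F and 14.8% for CHR. The lists were made by function, and several of a gene's promoters can share bases.

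Several regulators of G1 and of E2F fell, against 3.17% of all genes. Of 18 G1 cyclins, their kinases and inhibitors 4 fell and 0 rose (median -0.07): Ccne1 and Ccne2 (cyclins E), Skp2 (the ligase subunit that degrades p27) and Cdc25a. Ccne1 was at 7.91, 8.15 and 7.88 against 7.13 and 6.92, and fell by 0.96 ± 0.14 (adjusted p = 0.0059). Of 13 E2F and pocket protein genes 3 fell, Tfdp2, E2f7 and E2f8, and 0 rose (median -0.22). Either 48 h array left out brought the 4 calls to 2, and the 3 calls to 1 or 0. Without untreated replicate 1 or 2 the 3 calls numbered 1.

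The histone list holds, besides histone genes, Slbp, which binds histone mRNA. Of its 31 measured genes 2 rose and 0 fell, against 2.65% higher and 3.17% lower over all genes. The list's median was -0.01. H2bc4, a histone H2B gene, had the largest rise of the named called genes. Its levels were 5.54, 5.74 and 6.13 in untreated cells and 7.89 and 7.71 at 48 h, a rise of 1.99 ± 0.23 (3.98-fold, limma adjusted p = 0.0018). Histone genes are near-identical copies, so probes can take signal from another copy, and the value of a single gene is uncertain. H2aj, an H2A variant gene, was at 6.69, 6.73 and 6.72 against 7.29 and 7.42 and rose by 0.65 ± 0.11 (adjusted p = 0.011). It was no longer called when either 48 h array was left out.

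Some of the risen genes belong to the group of ATF4 and CHOP, transcription factors of the integrated stress response, in which phosphorylated eIF2 lowers translation while ATF4 is translated more. Of 24 measured genes 8 rose and 0 fell, against 2.65% risen among all genes, and the median was 0.52. Atf4 was at 8.93, 9.09 and 8.80 in untreated cells and at 9.94 and 9.98 at 48 h. It rose by 1.02 ± 0.08 (limma adjusted p = 0.000672) with its groups apart. Ddit3, which encodes CHOP, was at 5.78, 5.54 and 5.89 against 7.21 and 6.83 and rose by 1.28 ± 0.20 (adjusted p = 0.00798). Atf3 and Sesn2, further targets, rose by 0.74 and 0.88, and Ppp1r15a, the phosphatase subunit that reverses eIF2 phosphorylation, by 0.65 ± 0.13. Ppp1r15b, the constitutive counterpart of Ppp1r15a, named after its values were seen, rose by 0.28 ± 0.07 (adjusted p = 0.0387).

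Chac1, a glutathione-degrading enzyme, was at 6.22, 5.67 and 6.61 against 7.50 and 7.03. The untreated arrays spread over almost 1 log2 unit but do not reach the 48 h arrays, and the rise was 1.10 ± 0.25 (adjusted p = 0.0344). Nupr1, a small chromatin protein of stress, was at 7.08, 7.02 and 7.55 against 8.91 and 8.29 and rose by 1.38 ± 0.32 (adjusted p = 0.0354). The 8 calls of the list numbered 2 without untreated replicate 1 or 2, 1 without 48 h replicate 1 and 3 without 48 h replicate 2, and Atf4 kept its call in each alternative tried.

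Related lists of amino acid supply had few or 0 calls. Among all genes 2.65% rose and 3.17% fell. Of 13 genes of serine and one-carbon synthesis 0 were called, against 5.82% of all genes, and the median was 0.09. Asns, the asparagine synthetase, was at 11.43, 11.52 and 11.76 against 12.05 and 11.74, which overlap. Aldh1l2, a mitochondrial folate enzyme, was at 9.03, 9.03 and 9.10 against 10.03 and 9.73, and its difference of 0.82 ± 0.30 had an adjusted p of 0.153. Of 18 amino acid transporters 1 rose, Slc38a7 (a glutamine carrier of lysosomes) by 1.10 ± 0.19, and 2 fell, Slc36a4 by 0.39 and Slc38a4 by 0.45. All 3 transporter calls ended without 48 h replicate 1. Of 20 tRNA synthetase genes 2 rose, Aimp1 by 0.47 and Wars by 0.29, and both calls ended with any of the 5 arrays left out.

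The promoters of Atf3 (chr1:191183334-191183463, minus strand) and Chac1 (chr2:119351042-119351241, plus strand) are shown for this group, with the composite C/EBP and ATF letters in capitals as they read on the other strand.
Atf3: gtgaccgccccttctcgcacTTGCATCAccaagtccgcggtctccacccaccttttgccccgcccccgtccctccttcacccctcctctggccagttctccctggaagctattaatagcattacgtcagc
Chac1: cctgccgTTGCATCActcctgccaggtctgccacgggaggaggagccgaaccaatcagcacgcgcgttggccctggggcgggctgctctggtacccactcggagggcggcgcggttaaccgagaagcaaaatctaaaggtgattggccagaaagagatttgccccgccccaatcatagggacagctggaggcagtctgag
These letters lay in 30.8% of 26 promoters of the ATF4 list and 28.6% of 14 of the tRNA synthetases, against 3.97% of all promoters and 3.88% of those of all risen genes. Over the promoters of all genes tested the share was 3.08%. The windows of the risen genes Atf4 and Ddit3 held no such match, while that of Asns, which was not called, did.

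Several genes of protein folding fell. Of 28 genes of folding in the endoplasmic reticulum 8 fell and 1 rose (median -0.24), against 3.17% lower and 2.65% higher over all genes. Sdf2l1, a cofactor of the chaperone BiP, was at 8.40, 8.51 and 8.53 against 7.39 and 7.58 and fell by 1.00 ± 0.12 (limma adjusted p = 0.00195). Calr (calreticulin) was at 11.31, 11.28 and 11.54 against 10.58 and 10.70 and fell by 0.74 ± 0.10, and Hsp90b1, a chaperone of the same compartment, fell by 0.50. The co-chaperones Dnajb11 and Dnajc3 fell by 0.53 and 0.57. The risen gene was Atf6, named after its values were seen, a sensor of unfolded protein, at 0.40 ± 0.08 (adjusted p = 0.0184). The 8 calls numbered 3 and 4 without 48 h replicate 1 and 2, and 5 without the 3 arrays left out together. Atf6 was not called without untreated replicate 1 or either 48 h array.

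Of 29 cytosolic chaperone genes 9 fell and 0 rose (median -0.27), against 3.17% lower and 2.65% higher over all genes. Hspa4l, a nucleotide exchange factor of HSP70, fell by 0.82 ± 0.13 and Stip1, which links HSP70 to HSP90, by 0.45 ± 0.07. Of 31 proteasome genes 4 fell and 0 rose (median -0.25), the largest fall being that of the scaffold subunit Psmd1, by 0.71 ± 0.08 (adjusted p = 0.0018). These changes are small and depend on single arrays. The 9 chaperone calls numbered 1 and 3 and the 4 proteasome calls 1 and 2 without 48 h replicate 1 and 2, and the proteasome calls also numbered 2 without untreated replicate 1 or 2. Of 24 ribosome biogenesis genes 1 fell, against 3.17% of all genes. It was Ubtf, a factor of ribosomal RNA transcription, which fell by 0.39 ± 0.06 and was not called without 48 h replicate 1.

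Of 32 known p53 targets 8 rose and 1 fell (median 0.28), against 2.65% higher and 3.17% lower over all genes. Eda2r, a receptor of the TNF family, was at 7.61, 7.54 and 7.51 against 8.78 and 8.94 and rose by 1.31 ± 0.20 (limma adjusted p = 0.00735). Cd80, a costimulatory ligand, was at 4.72, 4.73 and 4.72 against 5.76 and 5.50 and rose by 0.91 ± 0.13. Dglucy, a mitochondrial enzyme of D-glutamate, rose by 0.94 and Ercc5, an excision repair nuclease, by 0.56. The fallen target was Sesn1, a sestrin, by 0.89 ± 0.13, while its paralog Sesn2 was among the risen genes of the ATF4 list. The 8 calls numbered 4 and 3 without 48 h replicate 1 and 2, and 4 and 5 without untreated replicate 2 and 3. That of Sesn1 ended without 48 h replicate 2.

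Lysosomal genes leaned upward with few calls, 4 of 38 higher and 0 lower (median 0.24), against 2.65% higher over all genes. Hexa, a subunit of the hexosaminidase that degrades gangliosides, was at 8.76, 8.74 and 9.04 against 9.95 and 9.97 and rose by 1.11 ± 0.10 (adjusted p = 0.000963). Atp6v0d1, a subunit of the proton pump, and Mcoln1, a calcium channel of lysosomes, rose by 0.73 and 0.79, and the tetraspanin Cd63 by 0.47. The 4 calls numbered 2 and 1 without 48 h replicate 1 and 2, and 13 with array weights.

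Of 27 genes of heparan sulfate, the cell surface chain that binds growth factors and polyamines, 4 rose and 0 fell (median 0.02). Among all genes 2.65% rose and 3.17% fell. Sulf2, which removes 6-O-sulfate from the chain outside the cell, was at 4.96, 4.84 and 4.70 against 6.46 and 6.72, next in size after H2bc4. It rose by 1.75 ± 0.13 (3.37-fold, limma adjusted p = 0.000461) and kept its call in each alternative tried. Glce, the epimerase of the chain, rose by 0.56 ± 0.10, Extl2 by 0.41 and the syndecan Sdc2 by 0.36. The 4 calls numbered 2 when either 48 h array or untreated replicate 1 or 2 was left out.

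The other largest rises belonged to no single list. Slc9a9, a sodium-proton exchanger of endosomes, was at 4.99, 4.98 and 5.41 against 6.73 and 6.93 and rose by 1.71 ± 0.20 (limma adjusted p = 0.00197). Txnip, which inhibits thioredoxin and glucose uptake, was at 7.68, 7.60 and 7.80 against 9.16 and 9.27 and rose by 1.52 ± 0.21 (adjusted p = 0.00409). Its relative Arrdc4 rose by 0.94 ± 0.09, and Pdk1, a kinase that restrains pyruvate dehydrogenase, fell by 0.71. With Txnip these were the only 3 calls among 11 genes of that list, against 5.82% of all genes. Pdk1 was not called without 48 h replicate 2. Chchd5, a mitochondrial protein, was at 4.99, 4.73 and 4.70 against 6.34 and 6.20 and rose by 1.47 ± 0.11 (adjusted p = 0.000461).

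Tmem150a, a membrane protein that acts in phosphoinositide synthesis, rose by 1.60, and Anxa8, an annexin, by 1.21 ± 0.09 from a higher level, 9.54, 9.44 and 9.68 against 10.70 and 10.83. Immp1l, a mitochondrial inner membrane peptidase, rose by 1.16, Mgat4b, an N-glycan transferase, by 1.12 and Hivep2, a zinc finger transcription factor, by 1.09 ± 0.10. Of the 20 largest rises, which were chosen among genes whose groups do not overlap, Nupr1, Grcc10, Stk40 and Chac1 had the largest standard errors, 0.25 to 0.32. Among 29 immediate early genes 2 rose, Jun by 0.60 and Atf3, against 2.65% of all genes. Jun was not called without 48 h replicate 2, nor Atf3 without untreated replicate 1 or 2 or 48 h replicate 1, and with array weights 5 of the 29 rose. Among 32 matrix genes 1 rose, the metalloproteinase inhibitor Timp2 (0.46 ± 0.06, adjusted p = 0.00284), against 2.65% of all genes. Eln (elastin) had the largest difference of that list and was not called (-1.75 ± 0.76, limma adjusted p = 0.242). Its 48 h arrays, 7.76 and 7.72, lie below the untreated 9.75, 9.52 and 9.19. The standard error of Eln pools the spread within groups over all 12 arrays, so it also holds spread at the other times. Of 19 interferon genes and 17 clock genes 0 were called at 48 h, against 5.82% of all genes.

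**Figure D3:**
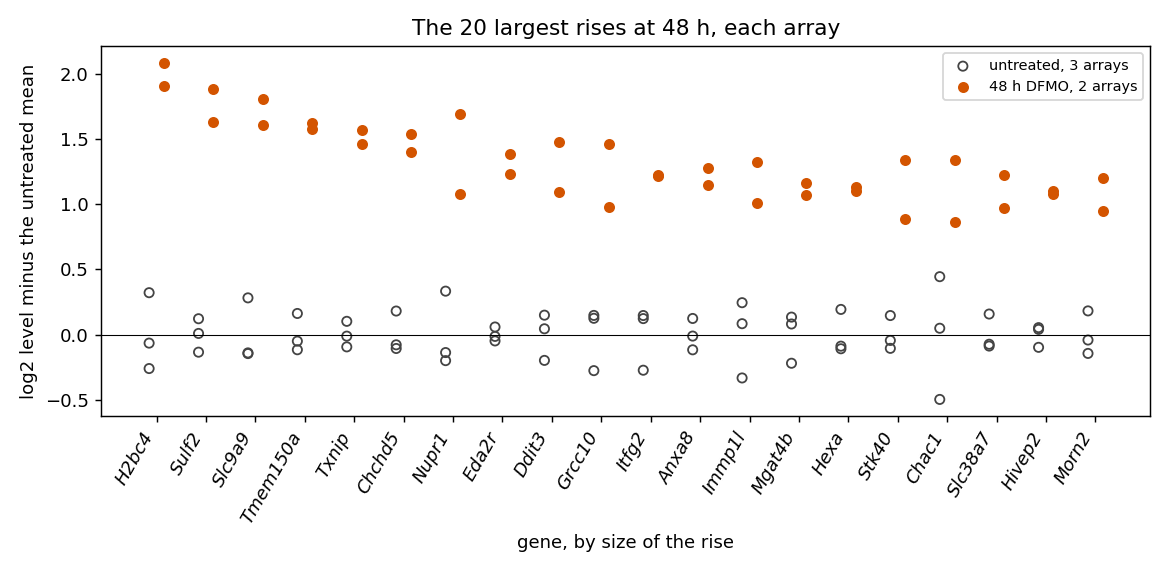
Log2 level minus the untreated mean (y axis) for the 20 genes with the largest rises (x axis), in the 3 untreated arrays (open circles) and the 2 arrays of 48 h DFMO (filled circles). The genes were chosen so that the filled circles lie above the open ones, and the rises run from 1.99 on average for H2bc4 to 1.07 for Morn2.

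**Figure D4:**
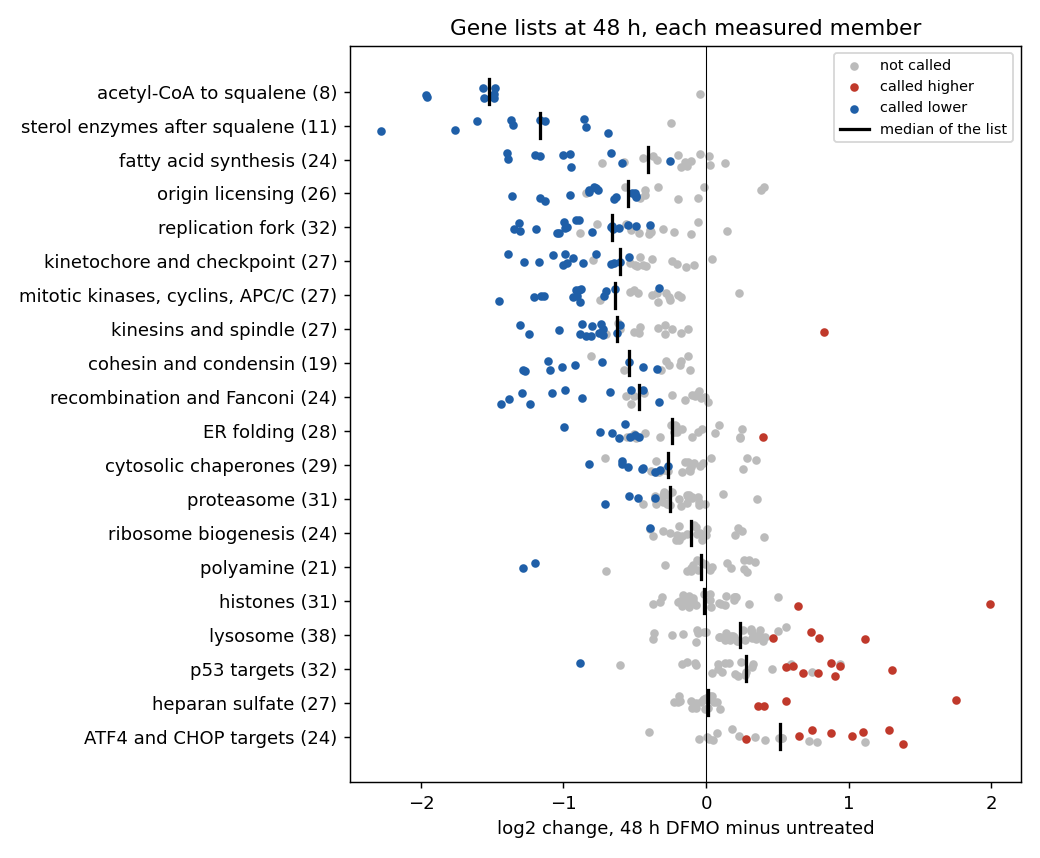
Log2 change at 48 h (x axis) of each measured member of 20 gene lists (rows, with the number of measured members), called higher in red, called lower in blue and not called in grey, with the list's median as a black line. Medians run from -1.52 for the enzymes up to squalene to 0.52 for ATF4 and CHOP targets.

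More genes differed at 48 h than at the earlier times. At 12 h and at 24 h 0 genes were called against the same untreated arrays by limma (741 and 1579 at an unadjusted p under 0.05, against 3947 at 48 h). Since these comparisons share the untreated arrays, 48 h was also tested against 24 h directly. There 333 genes differed (1.67%), 105 higher (0.527%) and 228 lower (1.14%). They included 7 of 8 enzymes up to squalene, 8 of 11 after it, 17 of 32 fork genes and 11 of 27 kinesin and spindle genes, all lower at 48 h, and 5 of 24 ATF4 genes and 6 of 32 p53 targets, all higher. The 333 calls numbered 92 and 67 without 48 h replicate 1 and 2.

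At 24 h the median of the sterol enzymes lay farther from 0 than those of the cell cycle lists. At 12, 24, 48 and 96 h the median log2 change against the shared untreated arrays was 0.02, -0.40, -1.52 and -2.22 for the enzymes up to squalene. It was 0.07, -0.05, -0.66 and -2.34 for the fork genes and 0.03, 0.01, -0.62 and -2.76 for the kinesin list. The difference between these lists at 24 h was not tested.

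From 48 h to 96 h 1723 genes differed (8.64%), 868 higher (4.35%) and 855 lower (4.29%). At 96 h 28 of 32 fork genes, 25 of 27 kinesin genes and 20 of 26 licensing genes were lower than at 48 h. Cdc6, at -1.36 against untreated at 48 h, was at -4.07 at 96 h (limma adjusted p = 8.83e-06 for the difference between these times). Among sterol enzymes 5 of 8 up to squalene and 4 of 11 after it were lower still. Nsdhl, at -2.28 and -2.59, did not pass this test (adjusted p = 0.428). The 1723 calls numbered 748 and 1060 without 48 h replicate 1 and 2.

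A few 48 h values turned back by 96 h. Chac1, at 1.10 at 48 h, was at -0.49 at 96 h (limma adjusted p = 0.00703 for the difference between these times), and Wars, at 0.29, was at -0.24 (adjusted p = 0.00201). Mylip, at -0.71, was at 0.55 (adjusted p = 0.00169). Sdf2l1, which fell by 1.00 at 48 h, was at -0.44 at 96 h (adjusted p = 0.0278). The serine and one-carbon list, with 0 calls at 48 h, had 9 of 13 genes lower at 96 h than at 48 h, against 4.29% of all genes. The ATF4 list went both ways, with 5 of 24 genes lower and 3 higher, against 4.29% and 4.35% of all genes. Sulf2 rose further, to 3.81.

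**Figure D5:**
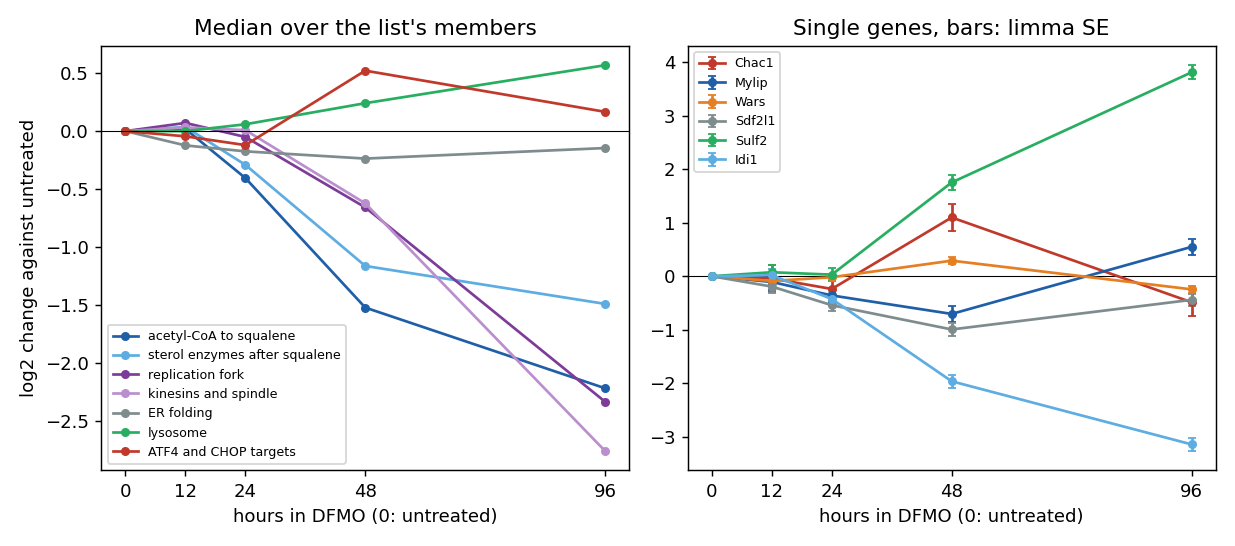
Log2 change against untreated cells (y axis) over hours in DFMO (x axis, 0 being untreated cells, set to 0), as the median over list members on the left and for single genes with limma standard errors on the right. All points share the same 3 untreated arrays, and Chac1 stands at 1.10 at 48 h and -0.49 at 96 h.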

How the data were processed

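The authors deposited 1 table of log2 values for 12 arrays (Affymetrix MoGene 1.0 ST, per the series' design text), for which RMA and Partek are named per the submitters' processing notes (versions not stated). RMA corrects background, gives arrays 1 shared distribution and summarises probes, which hides a shift common to all transcripts and shrinks folds near the floor. Values ran from 2.53 to 13.18, and array medians from 4.13 to 4.20. The genome build of its design is not stated in the labels.

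Of 35399 transcript clusters 21789 had 1 symbol in the platform annotation, 1621 several and 11989 none, and 0 symbols needed an update by Entrez identifier. The cluster with the highest mean stood for a gene (19938 genes). With limma 3.58.1 (R 4.3.3; lmFit, eBayes), group means were fitted over the 12 arrays together, with Benjamini-Hochberg adjustment over all genes, two-sided, and calls at an adjusted p under 0.05. Errors are limma's standard errors. Scripts were tested on simulated data. Tables used pandas 2.3.3 and figures matplotlib 3.10.9 (Python 3.11.15). 0 columns lacked a sample.

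Members and lists (41 lists, 822 of 908 entries measured) were chosen with earlier results of these data known. Named are the 20 largest rises and 20 largest falls among calls whose arrays do not overlap (Gm, Rik, LOC and similar names passed over), up to 5 members per list with the smallest p, all polyamine genes, and others chosen after their values were seen, such as the remaining markers and list members. Alternatives covered the arrays fitted, scaling, weights, variance model, clusters, a level filter of 5, the replicate number as a block, and each array left out. Same-numbered untreated and 48 h arrays deviated together at -0.07 and 0.16, and 2 such pairs do not settle whether the numbers pair the arrays.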

Additional observations from a re-analysis of the deposited data

Results flagged for a closer look

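By the test of the difference itself, 333 genes differed between 48 h and 24 h and 1723 between 96 h and 48 h. These values describe differences between times in DFMO, and the drug and the added time in culture cannot be told apart. Clusters without a single symbol in the platform annotation lay outside the gene tests. When all 35399 clusters were tested together with limma, 1097 were called at 48 h. Of 11989 with no symbol 174 were called, 55 higher and 119 lower, with log2 changes from -1.91 to 1.79. That is a smaller share than over all clusters. Of 1621 clusters with several symbols 48 were called, 28 higher and 20 lower, a share close to that over all clusters. These clusters enter no count of genes.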

How the results depend on the processing

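Of 137 named genes called at 48 h, 82 kept their call and 137 their direction under each of the 14 alternatives in which they were tested. Atf3 and Recql4 were not tested under the level filter. With array weights 2194 genes were called, 1074 higher and 1120 lower, and with the replicate number as a block 1542 were called, 810 higher and 732 lower. The block reverses which direction has more calls. Centring arrays on their medians gave 644 higher and 552 lower, and leaving out untreated replicate 3, 12 h replicate 2 and 24 h replicate 3 together gave 628 and 527. Over single arrays left out, the calls ranged from 375 to 918, those higher from 161 to 465 and those lower from 214 to 453. Between 48 h and 24 h, 521 genes were called with array weights and 217 among all clusters, and 67 to 329 with single arrays left out. Between 96 h and 48 h that range was 748 to 1762. The fit to the 5 arrays alone called 539 genes higher and 599 lower at 48 h against untreated. It shared 365 of the 528 higher calls and 462 of the 632 lower calls of the main fit. Of the 137 named called genes 10 lost their call in it. This fit cannot give the comparisons between times in DFMO. The fixed number of 2 and 3 arrays, and levels near the floor of the array, limit what could be called.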
